A study of Pelodiscus sinensis with 18 samples.

Results

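The genes described here code for membrane carriers of amino acids and small peptides, taken as the features of the deposited table whose symbol places them in solute carrier (SLC) families 1, 3, 6, 7, 15, 36, 38 or 43. The rule used names only, and it found 49 genes among 24880 features. SLC6 contributed 12 genes, SLC7 and SLC38 contributed 10 each, SLC1 6, SLC15 5, SLC43 3, SLC3 2 and SLC36 1. RNA-seq libraries were made from liver and from gut of Pelodiscus sinensis, the Chinese soft-shelled turtle, all labelled wild type (WT), after exposure to niclosamide, an agent that kills tapeworms and snails. Each tissue gave 3 libraries of a control group, 3 of a group at 10 µg niclosamide per L (called nic10 here) and 3 of a group at 50 µg per L (called nic50). The labels give no age, sex or exposure time used here, and tell neither if each library is a different animal nor which length of gut was taken. A p-value here thus speaks of the spread between libraries, which may be technical.

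Amino acids reach the blood in steps. At the brush border of the absorbing gut cell, carriers of the SLC6, SLC1 and SLC15 families take up free amino acids and short peptides with sodium or protons. The SLC7 family adds an exchanger there, and other exchangers on the far side of the cell pass amino acids on. Some SLC7 carriers work only as a pair with a heavy chain, which is SLC3A1 at the brush border and SLC3A2 elsewhere. In liver, carriers of the SLC38 and SLC1 families are known for the uptake and exchange of alanine, glutamine and other neutral amino acids, and a further group of carriers sits in the lysosome membrane. Not every gene in these families carries an amino acid. SLC6A4 moves serotonin, SLC6A6 taurine and SLC6A12 betaine, and SLC43A3 is known in mammals as a carrier of purine bases.

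Levels are given in FPKM (mapped fragments, scaled by transcript length and by the library's total), which allow levels to be compared between genes per length. The number of reads behind them is unknown. Over all features the livers summed to 588542 to 699273 FPKM with 9440 to 10839 features at 1 FPKM or more, and the guts to 677583 to 753840 with 11534 to 12340. Summed over the 15 of 17 hepatocyte markers that had a value, liver libraries held 63170 to 99144 FPKM and gut libraries 50.4 to 155. All 15 enterocyte markers had a value, and they summed to 84.7 to 187 FPKM in liver and to 1158 to 11932 in gut. Libraries of a group were not equally alike. Over 10892 genes the nic50 livers had pairwise correlations of 0.990 to 0.993 and control livers 2 and 3 of 0.991, while control liver 1 had 0.962 and 0.957 with the other controls and the nic10 livers ranged from 0.929 to 0.968. A set of 16 features was present at 1 FPKM or more in control livers 2 and 3, in control guts 1 and 2 and in library 3 of nic50 gut, and it stayed at or under 0.2 FPKM in the other 13 libraries, so it divided the controls unevenly from the exposed groups.

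Gut and liver carried different transporters. Gut libraries held 17 to 24 of the 49 genes at 1 FPKM or more, and these genes took 0.121% to 0.305% of the summed FPKM. Liver libraries held 15 to 18 of them, with 0.0375% to 0.0587% of the sum. In the whole series 18 of the 49 stayed under 1 FPKM in every library. These included SLC7A11, the cystine and glutamate exchanger, which reached 0.0609 FPKM at most, the cationic amino acid carrier SLC7A1 (at most 0.799) and SLC36A4 (at most 0.737). SLC15A5, SLC1A3 and SLC6A5 were listed at 0 in all 18 libraries, where a 0 may also stand for an estimate that failed.

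In gut the highest gene was SLC6A19, the sodium-coupled carrier of neutral amino acids at the brush border. It stood at 962, 1024 and 689 FPKM in controls 1 to 3, at 392, 964 and 882 in nic10 libraries and at 1075, 644 and 690 in nic50 libraries. It alone made up 36.2% to 54.6% of the summed FPKM of the 49 genes in a gut library. Next by mean level over the 9 guts came the peptide carriers SLC15A2 (313 FPKM) and SLC15A1 (186 FPKM), then the heavy chain SLC3A2 (113 FPKM), which lay within 90.7 to 152 FPKM. The cystine and cationic amino acid carrier SLC7A9 averaged 44.5 FPKM, the large neutral amino acid exchanger SLC7A5 38.4, SLC38A10 34.8, the glutamine carrier SLC1A5 29.6, the lysosomal carrier SLC15A4 23.2 and the heavy chain SLC3A1 20.5. From SLC7A9 down to SLC3A1 each gene's range over the 9 guts overlapped that of the next in order.

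In liver the highest was SLC38A4, a sodium-coupled carrier of neutral amino acids known from mammalian liver. It was at 111, 48.9 and 57.8 FPKM in the controls, 133, 117 and 125 in nic10 livers and 161, 121 and 134 in nic50 livers. It made up 20% to 48% of the summed FPKM of the 49 genes in a liver. The heavy chain SLC3A2 followed with a mean of 50 FPKM and a range of 41.3 to 57.7, then SLC43A3 (31.1), SLC38A10 (27.3), the alanine and serine carrier SLC1A4 (14.3), SLC15A4 (12.1), SLC38A2 (9.75), SLC38A6 (7.48), the taurine carrier SLC6A6 (7.45) and SLC43A1 (6.19). The partners that SLC3A2 is known to have among these genes were low in liver, with SLC7A5 at 0.262 to 1.28 FPKM, SLC7A6 at 0 to 0.422 and SLC7A10 at 0.788 to 1.86. The SLC38 genes do not all follow their place in the genome. SLC38A1, SLC38A2 and SLC38A4 are neighbours with no protein-coding gene between them in the RefSeq annotation, yet in gut SLC38A4 stayed within 0.0388 to 0.233 FPKM while SLC38A2 was at 4.97 to 14.1.

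**Figure D1:**
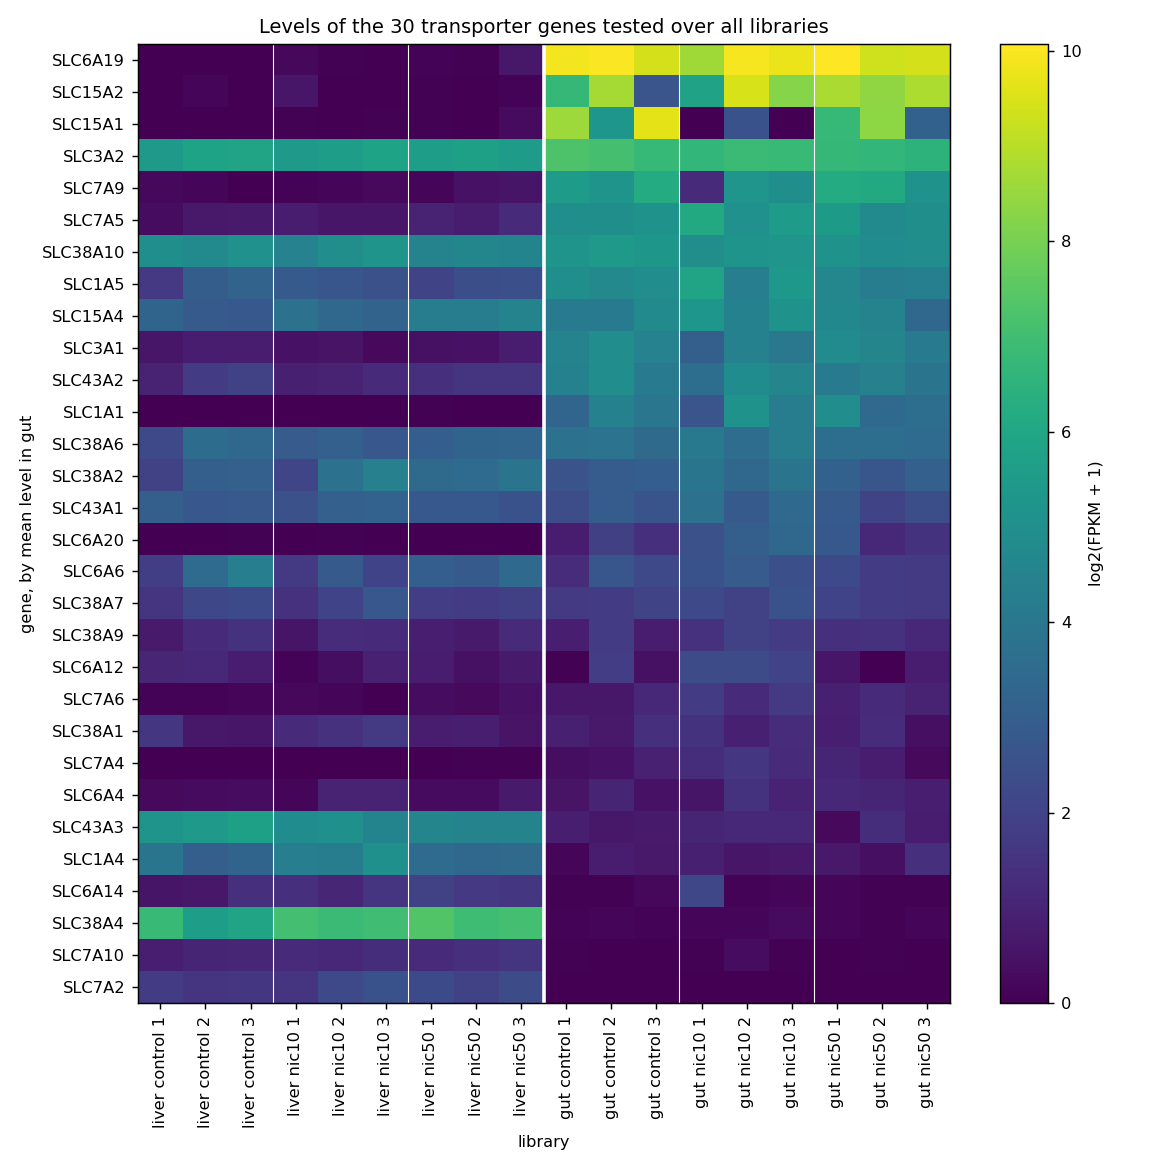
Levels of the 30 transporter genes tested over all 18 libraries, as log2(FPKM + 1) by colour, with genes in rows by mean level in gut and libraries in columns by tissue and dose. The bright upper right block holds SLC6A19 and the peptide carriers in gut, SLC15A1 varies between gut libraries from 0 to 808 FPKM, and the bright lower left row is SLC38A4 in liver.

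The first comparison was that of liver with gut in unexposed turtles, where 30 of the 49 genes passed the filter on low values of 1 FPKM in at least 3 of all 18 libraries. Of these, 15 were lower and 6 were higher in liver by limma at an adjusted p below 0.05 over all genes. Among all genes tested 64.1% were called, 51.5% lower and 12.6% higher in liver. The median difference was -0.50 for the transporter genes and -0.58 for all genes on the log2(FPKM + 1) scale, so the counts stood near the background. Of the 30, 12 reached 1 FPKM in 3 or more libraries in gut only and 5 in liver only, and of the 13 that did so in both tissues 2 were higher and 5 lower in liver. After quantile normalization, which removes the general excess of lower values in liver, 10 were higher and 12 lower, and after rescaling by trimmed means 8 were higher and 14 lower.

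Carriers of the brush border and of peptides were far lower in liver. The SLC15 list had 3 of 3 tested genes lower and a median of -5.99. Of 7 listed brush border carriers with a value, 6 were lower in liver, with a list median of -3.92 against -0.58 for all genes. No liver reached 1 FPKM for SLC15A1, SLC15A2 or any of these 6, which met the filter only through gut. SLC7A5, SLC7A6 and SLC7A4 met it only through gut too. Among all genes that did so 76.1% were called, so nothing is read from these counts and medians or from the calls of these genes. SLC6A19 was at 0.0152, 0.0193 and 0 FPKM in control livers, a log2 difference of -9.76 (SE 0.29, limma adjusted p = 5.65e-14). SLC15A1 followed with -7.83 (SE 1.10), SLC15A2 with -5.99 (SE 1.05) and SLC7A9 with -5.54 (SE 0.70). SLC7A5 was lower by a log2 difference of -4.47 (SE 0.23), SLC3A1 by -3.92 (SE 0.28), the glutamate carrier SLC1A1 by -3.86 (SE 0.48) and SLC43A2, a carrier of branched-chain and aromatic amino acids, by -2.94 (SE 0.31). SLC1A5 (-2.29, SE 0.37), SLC15A4 (-1.39, SE 0.31), the proline carrier SLC6A20 (-1.33, SE 0.34), SLC3A2 (-1.32, SE 0.17), SLC7A6 (-0.71, SE 0.18) and SLC7A4 (-0.59, SE 0.19) were also lower. The brush border carrier that was not called is SLC6A14, at 0.474, 0.552 and 1.62 FPKM in control liver and at 0.0327, 0.0326 and 0.166 in control gut (0.76, limma adjusted p = 0.102).

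The 6 genes higher in liver came from 5 families. SLC38A4, SLC1A4, SLC7A2 and SLC7A10 met the filter on low values only through liver. Among all genes that did so 79.6% were called, so nothing is read from the calls of these genes. SLC38A4 had a log2 difference of 6.0 (SE 0.22, limma adjusted p = 9.45e-13), SLC43A3 of 4.72 (SE 0.22) and SLC1A4 of 2.87 (SE 0.28). The cationic amino acid carrier SLC7A2 differed by 1.63 (SE 0.20), with 2.34, 1.93 and 2.05 FPKM in control liver and at most 0.0142 in any gut, and SLC7A10 differed by 0.97 (SE 0.14). SLC6A6 differed by 1.18 (SE 0.48, limma adjusted p = 0.0424), on control levels of 2.67, 10.5 and 18.9 FPKM in liver and 1.41, 5.40 and 3.68 in gut, which overlap. The call of SLC6A6 held in 2 of 6 fits without 1 library (adjusted p from 0.00113 to 0.239), and that of SLC38A6, lower in liver by -0.66 (SE 0.27, limma adjusted p = 0.0394), held in 3 of 6 (0.0096 to 0.267). Other genes had levels in the same range in both tissues. SLC38A2 differed by -0.14 (95% interval -1.05 to 0.76), SLC43A1 by 0.23 (-0.31 to 0.77) and the lysosomal arginine sensor SLC38A9 by 0.01 (-0.59 to 0.61), none past the test.

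**Figure D2:**
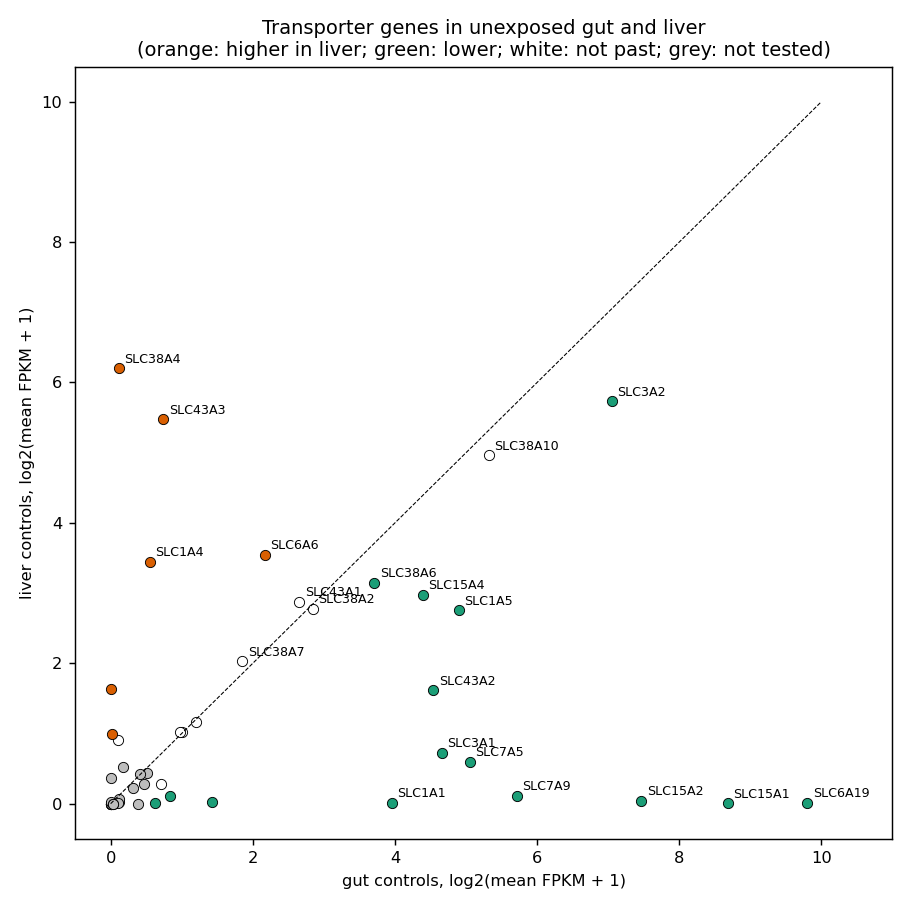
Mean level of each of the 49 transporter genes in control gut (horizontal) and control liver (vertical), as log2(mean FPKM + 1) over 3 libraries a group, with the dashed line marking equal levels. SLC6A19, SLC15A1 and SLC15A2 lie at the lower right near 0 in liver, SLC38A4 and SLC43A3 at the upper left, and SLC38A10 and SLC38A2 near the line.

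Among the 10 transporter genes highest in gut, the 2 peptide carriers of the cell surface varied most between the 9 guts, with a coefficient of variation of 148% for SLC15A1 and 71.9% for SLC15A2. Of genes at lower levels SLC6A14 (253%), SLC6A12 (99.6%) and SLC6A20 (79.4%) varied more than SLC15A2. SLC15A1, the proton-coupled carrier that takes up dipeptides and tripeptides in the mammalian small intestine, stood at 384, 37.8 and 808 FPKM in controls 1 to 3. It was at 0, 4.80 and 0.0153 FPKM in nic10 libraries and at 105, 331 and 7.75 in nic50 libraries. All 3 nic10 guts lay below every other gut, and the nic50 guts overlapped the controls. SLC15A2, its high-affinity relative best known from mammalian kidney, stood at 103, 421 and 5.33 FPKM in controls, 55.2, 701 and 298 in nic10 and 441, 334 and 456 in nic50 guts.

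The share of the summed FPKM of SLC15A1 and SLC15A2 that SLC15A2 took was 21.1%, 91.8% and 0.655% in controls 1 to 3. It was 100%, 99.3% and 100% in nic10 guts to 3 digits, and 80.8%, 50.2% and 98.3% in nic50 guts. The sum of both carriers ranged from 298 to 814 FPKM in 8 of the guts and was 55.2 in nic10 library 1. Control gut 3 thus carried almost only SLC15A1, and control gut 2 mostly SLC15A2, within 1 unexposed group.

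Some genes that are known to mark lengths of the intestine moved with this order and others did not, and all of them were chosen after their values were seen. SLC10A2, the bile acid carrier of the mammalian ileum, was at 0 FPKM in the 3 guts highest in SLC15A1 and at 338, 144 and 350 in nic10 libraries 1 to 3. It was at 94.5 FPKM in control 2, at 13.4 in nic50 library 1 and at 1.34 in nic50 library 3. FABP6, the ileal bile acid binding protein, was at 0, 281 and 0 FPKM in controls, 154, 241 and 257 in nic10 and 174, 1.25 and 47.8 in nic50 guts. GATA4, a transcription factor of the upper mammalian intestine, ran the other way, with 4.72, 3.36 and 7.75 FPKM in controls, 0.123, 1.80 and 0.386 in nic10 and 1.88, 4.80 and 1.48 in nic50 guts. HOXA9, a homeobox gene of the hind part of the body axis, was at 16 FPKM in nic10 library 1 and 3.67 in nic10 library 3, and at most 0.324 in the other guts. Genes of absorbing cells of the small intestine followed SLC15A1 only in part. The fatty acid binding protein FABP1 was at 128, 690 and 154 FPKM in controls, 7.46, 1576 and 335 in nic10 and 903, 2498 and 293 in nic50 guts, low in the 2 guts highest in SLC15A1. FABP2 (135 and 141 FPKM in those 2 guts, 458 in nic10 library 2), the apolipoprotein APOA4 (986 and 1457 against 1366) and the sucrase SI (56 and 46.5 against 53.9) did not separate them from nic10 library 2 in the direction of SLC15A1 either. At the low end of SLC15A1, all 4 genes were lowest in nic10 library 1. FABP2, APOA4 and SI were next lowest in nic10 library 3 (37.8, 416 and 18.9 FPKM), and FABP1 was not.

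For SLC10A2, FABP6 and GATA4 the 3 guts highest in SLC15A1 stood apart from the nic10 guts, and inside the control group control 2 stood apart from controls 1 and 3 in SLC10A2 and FABP6. None of these 3 genes passed the test between nic10 and control guts (SLC10A2 5.82, limma adjusted p = 0.215, FABP6 5.02, adjusted p = 0.330, GATA4 -1.88, adjusted p = 0.166). CDX2, which marks the intestine as a whole, lay within 39.8 to 57.2 FPKM in all guts. Other genes of the same choice did vary. CDX1 (30.9 and 33.6 FPKM) and GATA5 (12.2 and 25.4) were lowest in nic10 libraries 1 and 3. HOXD8 was at 18.8, 9.08 and 15.3 FPKM in nic10 guts and at most 6.19 in the others. CDX1, GATA5 and HOXD8 did not pass between nic10 and control guts (limma adjusted p = 0.441, 0.414 and 0.197). The part of the length of gut sampled in the values of the transporters was not tested.

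**Figure D3:**
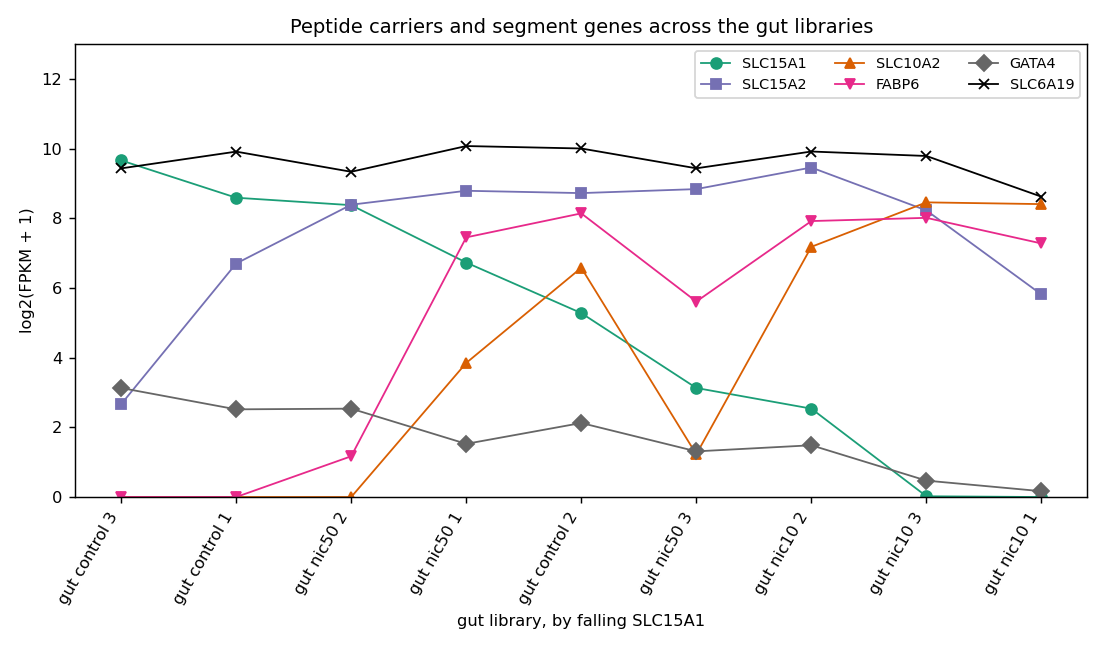
Levels as log2(FPKM + 1) in the 9 gut libraries, ordered from left to right by falling SLC15A1, for SLC15A1, SLC15A2, SLC6A19 and the genes SLC10A2, FABP6 and GATA4. SLC15A1 falls from 808 to 0 FPKM, SLC10A2 and FABP6 are at or near 0 in the 3 libraries at the left and GATA4 is lowest in the 2 at the right, while SLC6A19 stays between 392 and 1075 FPKM.

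The exposure comparisons ask which genes differ after niclosamide in each tissue. In gut at 10 µg per L, 25 transporter genes passed the filter on low values and 0 were called by limma, against a background of 0.174% of all genes tested. At an unadjusted p below 0.05 there were 8, or 32%, against 14.9% of all genes, and the groups did not overlap for 8, against a background of 22%. The median difference was 0.37 over the transporter genes and 0.11 over all genes. Leaving out genes that met the filter only through one of the groups compared left 5 of 20 transporter genes (25%) at an unadjusted p below 0.05 and 14% of 11743 genes, with medians of 0.30 and 0.11. SLC15A1 had a log2 difference of -6.99 (SE 1.46, limma adjusted p = 0.148), and the value moved to -5.31 (adjusted p = 0.604) without nic10 libraries 1 and 3, the libraries highest in HOXA9, where the remaining nic10 library was assumed to vary like the other groups. The range of its adjusted p over the fits without 1 library was 0.0571 to 0.467.

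The other brush border carriers of nic10 gut were lowest in library 1. SLC7A9 stood at 45.5, 36.2 and 73.1 FPKM in controls and at 1.33, 37.1 and 31.0 in nic10 guts (-1.83, SE 0.92, limma adjusted p = 0.377). Its heavy chain SLC3A1 stood at 21.7, 30 and 21.1 FPKM in controls and at 7.37, 20.7 and 15.2 in nic10 guts (-0.80, SE 0.34, adjusted p = 0.323). Library 1 was low for both subunits, and its ratio of SLC7A9 to SLC3A1 was 0.18 where the other 8 guts had 1.2 to 3.46. SLC6A14 went the other way, with 3.42 FPKM in library 1 and at most 0.166 in the other guts. In that library the enterocyte markers summed to 1158 FPKM, the lowest of the 9 guts, and the smooth muscle markers (10 of 12 with a value) to 2205, against 999 to 1520 in controls, 1170 and 2049 in the other nic10 guts and 863 to 3485 in nic50 guts. With libraries 1 and 3 left out, the difference was -0.40 for SLC7A9 and -0.20 for SLC3A1. That left only library 2, the highest nic10 gut for both genes. A smaller fall followed from this choice, so nothing is read from it. SLC6A19 changed by -0.34 (SE 0.35, adjusted p = 0.656) and SLC1A1 by 0.15 (SE 0.63, adjusted p = 0.922), neither past the test. In a bulk sample fewer cells of a type and less RNA per cell cannot be told apart.

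There were 6 carriers that stood higher in every nic10 gut than in every control without passing the test, or 24% of those tested, against 15.6% of all genes. Of these, SLC6A12, SLC7A4, SLC7A6 and SLC43A3 met the filter on low values only through the nic10 guts, with 1, 1, 2 and 1 other guts at 1 FPKM or more, so nothing is read from this count. SLC38A2, a carrier of neutral amino acids that mammalian cells raise when amino acids are short, was at 4.97, 6.53 and 7.09 FPKM in controls and 14.1, 9.46 and 13.8 in nic10 guts (0.90, SE 0.21, limma adjusted p = 0.169). Its adjusted p was 0.0468 without nic10 library 2 and ran from 0.0468 to 0.535 over the fits without 1 library. SLC6A20 was at 0.769, 2.71 and 1.55 FPKM in controls and 4.58, 7.31 and 9.69 in nic10 guts (1.63, SE 0.45, adjusted p = 0.207). SLC6A12 was at 0.0328, 2.52 and 0.350 FPKM against 3.94, 4.01 and 3.03 (1.45, SE 0.42, adjusted p = 0.219), and SLC7A6 at 0.588, 0.588 and 1.20 against 2.47, 1.37 and 2.25 (0.76, SE 0.22, adjusted p = 0.219). The others are SLC7A4 (0.78, adjusted p = 0.245) and SLC43A3 (0.37, adjusted p = 0.512). SLC7A4 was lowest in control guts 1 and 2 and in nic50 gut 3, the guts that held the set of 16 features. Changes of SLC7A5 (0.54), SLC1A5 (0.30), SLC6A6 (0.56), SLC38A9 (0.61), SLC43A1 (0.72), SLC3A2 (-0.23) and SLC43A2 (-0.13) were not past the test either.

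In gut at 50 µg per L 0 of 25 were called by limma, against 0.0238% of all genes, and 2 had an unadjusted p below 0.05 (8%, against 6.5% of all genes). They are SLC3A2, at 152, 137 and 106 FPKM in controls and 103, 99.6 and 90.7 in nic50 guts (-0.41, SE 0.16, limma adjusted p = 0.724), and SLC38A10, at 36.5, 41.0 and 39.3 against 33.9, 28.8 and 29.8 (-0.33, SE 0.14, adjusted p = 0.740). Every nic50 gut lay below every control for both, and SLC1A5 was the third such gene (31.3, 26 and 29.3 against 24.5, 18.2 and 19.4 FPKM, -0.47, adjusted p = 0.890). The groups did not overlap for these 3 alone, or 12%, against 11.8% of all genes, 7.56% lower. SLC15A2 had a difference of 2.65 (SE 1.38, adjusted p = 0.817) and SLC15A1 of -1.77 (SE 1.46, adjusted p = 0.892). SLC6A19 (-0.17), SLC7A9 (0.18), SLC3A1 (-0.10), SLC1A1 (0.13), SLC7A5 (0.04), SLC6A6 (-0.13), SLC38A2 (0.14), SLC38A9 (0.21), SLC43A1 (-0.18) and SLC6A20 (0.43) differed by less than their SE. SLC43A2 (-0.37, SE 0.34) and SLC6A4 (0.32, SE 0.27) did not pass the test either. SLC6A4 met the filter on low values only through the nic50 guts, so nothing is read from its difference.

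Between the doses in gut 0 of 25 were called by limma, against 0.119% of all genes, and 8 had an unadjusted p below 0.05, or 32%, against 14.2%. Without genes that met the filter only through one of these groups there were 5 of 19 (26.3%), against 13.6% of 11809 genes. The smallest p belonged to SLC6A12, the betaine carrier, with 0.543, 0 and 0.737 FPKM at nic50 (-1.74, SE 0.42, limma adjusted p = 0.164). SLC6A12 met the filter only through the nic10 guts, so nothing is read from its place. SLC15A1 was higher at nic50 than at nic10 by 5.22 (SE 1.46, adjusted p = 0.207) and SLC38A2 lower by -0.76 (SE 0.21, adjusted p = 0.203). Both dose comparisons share the nic10 libraries that stood at the low end of SLC15A1.

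**Figure D4:**
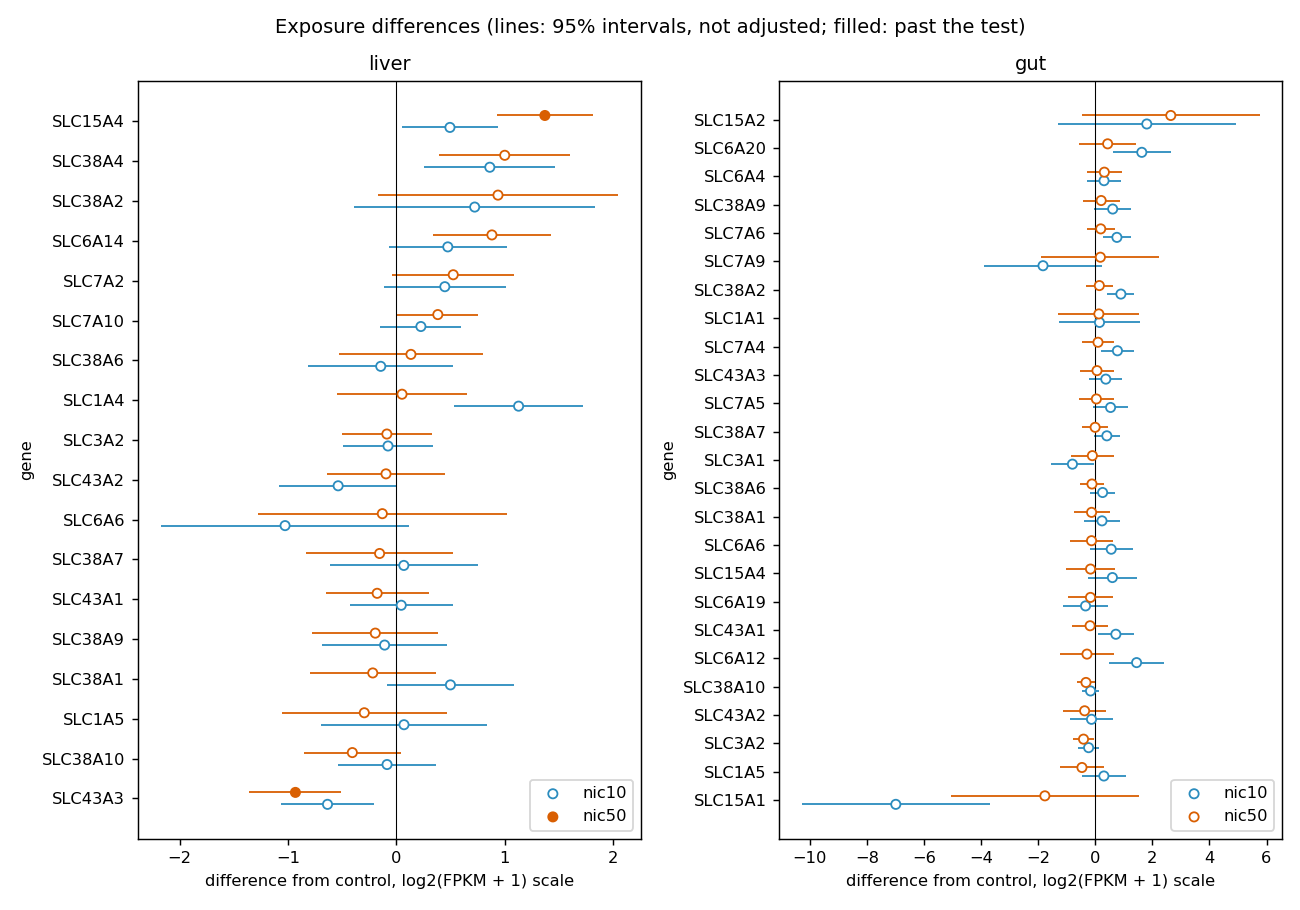
Difference of each tested transporter gene from control in liver (left, 18 genes) and gut (right, 25 genes) on the log2(FPKM + 1) scale, for nic10 (blue) and nic50 (orange), with unadjusted 95% intervals and filled points for genes past the test. Filled points are SLC15A4 (1.37) and SLC43A3 (-0.93) in nic50 liver, no gut point is filled, and SLC15A1 in nic10 gut lies at -6.99.

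In liver the clearest change was a rise of SLC15A4, which in mammals carries histidine and small peptides out of the lysosome. It stood at 8.42, 6.27 and 5.89 FPKM in controls, 12.5, 9.58 and 8.29 in nic10 and 18.4, 17.7 and 21.6 in nic50 livers. The 3 nic50 livers lay above all others, and only the lowest nic10 liver reached into the range of the controls. SLC15A4 rose at nic50 by a log2 difference of 1.37 (SE 0.20, limma adjusted p = 0.00487). It passed in 5 of 6 fits without 1 library (1.28 to 1.51, adjusted p from 0.00386 to 0.0508, the highest without nic50 library 3). The second call was a fall of SLC43A3, from 36.1, 42.9 and 51.6 FPKM in controls to 22.9, 21.5 and 21.9 (-0.93, SE 0.19, adjusted p = 0.0243), with 28.9, 31.9 and 22.2 at nic10. SLC43A3 passed in 1 of 6 fits without 1 library, that without control 1 (adjusted p from 0.0129 to 0.136), at values of -1.06 to -0.80. The controls left in the fit without control 1 all held the set of features named above, and no exposed liver did. Exposure and the set cannot be told apart in that fit.

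These were 2 of the 18 transporter genes tested in nic50 liver, against a background of 4.71% of all genes, 3.69% higher and 1.02% lower. The groups did not overlap for 8 genes, or 44.4%, against 35.6% of all genes. The median was -0.09 over the transporter genes and 0.13 over all genes, and both rescalings brought the median of all genes to within 0.02 of 0 and left SLC15A4 and SLC43A3 called. With the 3 nic50 livers averaged to 1 sample and control livers 2 and 3 to another the values were 1.30 and -0.87. That fit takes its spread from the control and nic10 samples, with the lone nic50 sample assumed to vary like them. It thus cannot decide if either call would hold. Both calls count the 3 alike nic50 livers as separate, and the labels do not tell if they are separate animals. With a term for the set of 16 features, control 1 alone gave the control level, as the only control liver without the set. The differences at nic50 were then 1.10 for SLC15A4 and -0.68 for SLC43A3. Resting on 1 control, that fit cannot decide if either call would hold. In gut the 3 libraries with that set held the 3 lowest SLC15A4 values, 16.3, 16.5 and 9.33 FPKM, and the other 6 held 20.7 to 38.3. In liver, controls 2 and 3 were the libraries with the set and held the lowest values, 6.27 and 5.89 FPKM. Control 1, without it, stood at 8.42 FPKM, and no exposed liver had the set. RefSeq places SLC15A4 on chromosome 15. Of the 16 features it names a chromosome for LOC102448023 and LOC102450726 alone, also 15, so the place of the rest of the set is unknown. SLC7A4, which RefSeq also places on chromosome 15, was lowest among the guts in the same 3 libraries. It stood at 0.299, 0.418 and 0.196 FPKM there and at 0.721 to 2.01 in the other guts. The part of the set in the SLC15A4 and SLC7A4 values was not tested further.

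**Figure D5:**
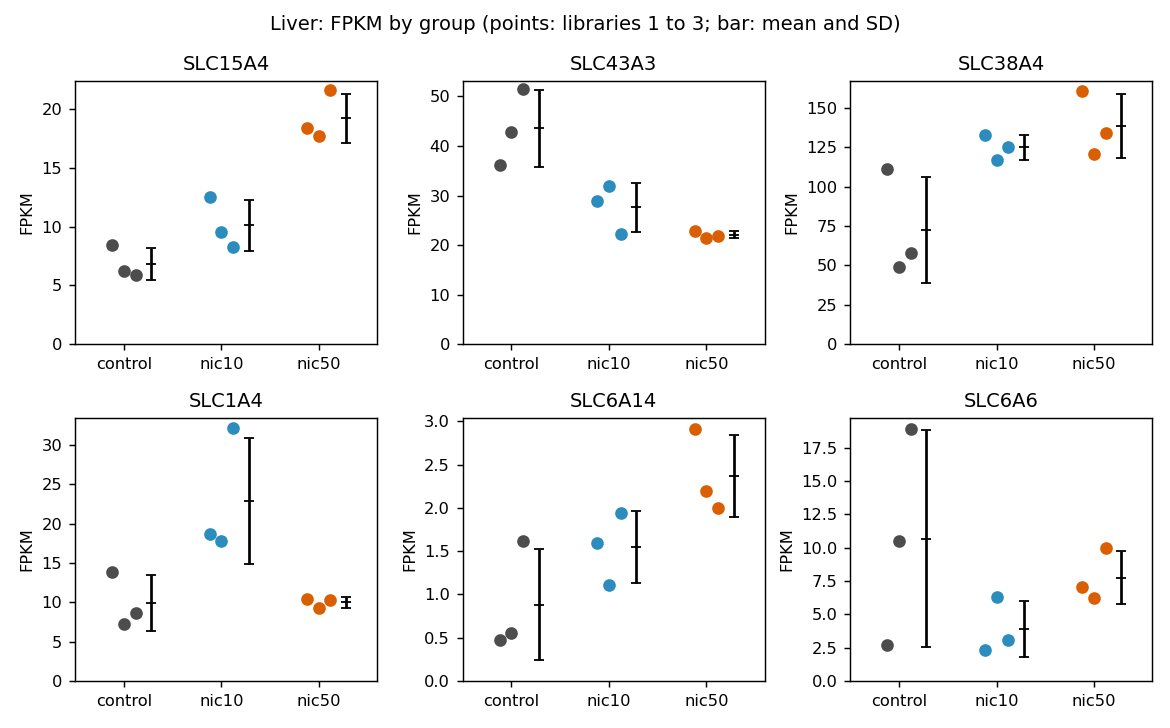
FPKM of 6 transporter genes in the 9 livers by group, with points for libraries 1 to 3 from left to right and a bar for the mean and SD (n = 3). The nic50 points lie above all controls for SLC15A4 and below them for SLC43A3, SLC1A4 is high at nic10 alone, and control 1 sets the upper end of SLC38A4 and the lower end of SLC6A6 in the control group.

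Among genes that missed the test at nic50, SLC38A4 was higher than in every control in all 3 livers (1.0, SE 0.27, limma adjusted p = 0.0651). Its control 1 stood at 111 FPKM against 48.9 and 57.8. Without that library the difference was 1.35 (adjusted p = 0.00456, from 0.00456 to 0.225 over the fits without 1 library). The controls left in that fit all held the set of features named above, and no exposed liver did. Exposure and the set thus cannot be told apart in it. With the term for the set, control 1 alone gave the control level, and the difference of SLC38A4 was 0.30. SLC6A14, a carrier of neutral and cationic amino acids, was at 0.474, 0.552 and 1.62 FPKM in controls and 2.91, 2.20 and 2 in nic50 livers (0.88, SE 0.25, adjusted p = 0.0708). Of the fits without 1 library it passed in that without control 3 (1.15, adjusted p = 0.0393). SLC7A10 (0.38, adjusted p = 0.233), SLC7A2 (0.53, adjusted p = 0.279), SLC38A2 (0.94, adjusted p = 0.330), SLC38A10 (-0.41, adjusted p = 0.293) and SLC1A5 (-0.30, adjusted p = 0.694) followed. SLC3A2 (-0.09), SLC6A6 (-0.13), SLC38A9 (-0.19), SLC43A1 (-0.18) and SLC43A2 (-0.10) differed by less than their SE. Fibroblast and stellate cell markers moved with the dose, with sums of 13.8 to 19.6 FPKM in controls, 27.5 to 39.1 at nic10 and 42.5 to 65.2 at nic50 over all 11 markers, and 5 of the 9 tested were called at nic50. Hepatocyte markers summed to 63170 to 74386 FPKM in controls and 72721 to 77443 at nic50. Leukocyte and macrophage markers (10 of 13 with a value) summed to 109 to 164 FPKM in controls, 100 to 239 at nic10 and 169 to 247 at nic50. Of these 10, 0 were called at nic50. The part of other cell types in the SLC15A4 and SLC43A3 values was not tested.

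In liver at 10 µg per L 0 of 18 were called by limma, against 1.07% of all genes, and 4 had an unadjusted p below 0.05, or 22.2%, against 13.5%. SLC1A4, which exchanges alanine, serine and cysteine, had the smallest p. It stood at 13.9, 7.20 and 8.59 FPKM in controls, 18.7, 17.8 and 32.2 in nic10 and 10.4, 9.24 and 10.3 in nic50 livers, so that nic10 alone lay above the controls. Its difference at nic10 was 1.13 (SE 0.27, limma adjusted p = 0.083), and it passed without control 1 (adjusted p = 0.0183) and without nic10 library 1 (0.0451) but in none of the other 4 fits without 1 library, the highest adjusted p being 0.324. SLC43A3 (-0.64, adjusted p = 0.166), SLC38A4 (0.86, adjusted p = 0.182) and SLC15A4 (0.50, adjusted p = 0.308) lay in the direction they had at nic50, in comparisons that share their controls. SLC43A2 (-0.54, adjusted p = 0.377) and SLC6A6 (-1.03, adjusted p = 0.434) had the next smallest p among lower genes. SLC6A6 stood at 2.31, 6.30 and 3.10 FPKM in nic10 livers, where the lowest lay below the lowest control (2.67) and the other two inside the range of the controls. Without control liver 1 more genes passed in general, 569 of 10855 against 116 of 10892 with it, and 6 of the 18 transporter genes were among them, SLC1A4, SLC38A1 and SLC38A4 higher and SLC43A2, SLC43A3 and SLC6A6 lower. SLC38A1 met the filter there only through the nic10 livers, so nothing is read from its call. In the fit without control 1 the controls left all held the set of features named above, and no exposed liver did. Exposure and the set cannot be told apart in it, so its calls, that of SLC1A4 included, cannot decide on exposure. With the term for the set, control 1 alone gave the control level, and the difference of SLC38A4 was 0.16. SLC38A2 (0.72), SLC1A5 (0.07), SLC3A2 (-0.08), SLC38A9 (-0.11), SLC43A1 (0.05) and SLC38A10 (-0.09) were not past the test.

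Between the doses in liver 1 of 18 was called, against 2.53% of all genes. SLC15A4 was higher at nic50 than at nic10 by 0.88 (SE 0.20, limma adjusted p = 0.0494), and it passed in 1 of 6 fits without 1 library (adjusted p from 0.0119 to 0.228). SLC1A4 was lower at nic50 by -1.08 (SE 0.27, adjusted p = 0.0635) and SLC38A1 by -0.72 (SE 0.26, adjusted p = 0.180), neither past the test. SLC38A1 met the filter only through the nic10 livers.

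Whether a change differed between the tissues was tested in the fit of all libraries. Of 30 transporter genes 0 were called at nic10, against 0.364% of all genes, and 0 at nic50, against 0.987%. At an unadjusted p below 0.05 limma gave 9 at nic10 (30%, against 9.83% of all genes) and 3 at nic50 (10%, against 12.4%). The count at nic10 was 7 of 28 (25%, against 9.25% of 12771 genes) without genes that met the filter only through 1 group. At nic10 SLC15A1 had a liver change minus gut change of 7.02 (SE 1.56, limma adjusted p = 0.0648), and no liver held more than 0.228 FPKM of it. SLC6A12 followed (-1.99, SE 0.50, adjusted p = 0.104). SLC43A3 lay below every control in the nic10 livers and above every control in the nic10 guts (-1.0, SE 0.31, adjusted p = 0.238). Its gut values were low, at 0.79, 0.583 and 0.639 FPKM in controls and 1.07, 1.19 and 1.21 at nic10. Among guts it met the filter only through the nic10 guts, so nothing is read from its gut side. At nic50 SLC15A4 had a difference of 1.54 (SE 0.44, adjusted p = 0.120), SLC43A3 of -0.99 (SE 0.31, adjusted p = 0.161) and SLC38A4 of 0.98 (SE 0.31, adjusted p = 0.170). So SLC15A4 was called in nic50 liver and not in nic50 gut (-0.17, SE 0.38), without a called difference between the tissues.

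By role, the SLC38 carriers had 7 tested members in liver and 6 in gut, and 0 were called by limma in any exposure comparison. At an unadjusted p below 0.05 were SLC38A4 in liver at both doses, SLC38A1 between the liver doses, SLC38A2 in nic10 gut and between the gut doses, and SLC38A10 in nic50 gut, beside SLC38A4 in the difference between tissues at both doses. Of these, SLC38A1 met the filter only through the nic10 livers. The brush border carriers had 6 tested members in gut with a median of -0.57 at nic10 and 0.01 at nic50. The heavy chains and exchangers of the far side had 5 tested members in gut with medians of 0.54 and -0.18. Over all genes the gut medians were 0.11 at nic10 and -0.02 at nic50. These 5 include SLC7A6, which met the filter only through the nic10 guts, so nothing is read from their nic10 median. Of the lysosomal carriers SLC15A4 was called in nic50 liver, while SLC38A7, which carries glutamine, and SLC38A9 had differences of -0.15 and -0.19 there.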

How the data were processed

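RNA-seq was analysed in 18 libraries of turtle liver and gut. Extraction used TRIzol and library preparation a VAHTS Universal kit, per the labels' protocols. The one tool recorded is CASAVA, per the submitters' processing notes, with the aligner, counter and build not given in the sources used here. Values are FPKM as the authors deposited them and were used unchanged. Sequencing depth is unknown, so no counting intervals are given, and reads of near-identical copies may be split. log2(FPKM + 1) was fitted with limma 3.58.1 in R 4.3.3 with trended moderation. Adding 1 before the log understates changes of low genes. A gene was tested when 3 or more libraries in the fit had 1 FPKM or more, each tissue alone, and both tissues in 1 fit for contrasts between them. Tests were two-sided with Benjamini-Hochberg adjustment over all tested genes and a threshold of 0.05. The fit was tested on simulated data. Neighbours and the names of 975 numbered features came from the RefSeq annotation of assembly ASM4963464v1. All 49 genes had an entry there, and 4 numbered features with names of these families are not members. The members and lists were chosen with earlier results of these data known. Named genes are those called, the 3 of lowest p each way per exposure comparison, a fixed set (SLC7A7, SLC7A8, SLC36A1 and SLC38A3 of it are not analysed here), the 10 highest per tissue and the 8 most different each way between tissues. Settings changed 1 at a time were the pseudocount (0.1), the filter (none, or a mean of 5 FPKM or more), trimmed means, quantile normalization, library weights, fits of the groups compared, a replicate block, alike livers averaged and leaving out each library. Leaving out nic10 guts 1 and 3 together, and a term for the set of 16 features, were added after seeing the data.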

Additional observations from a re-analysis of the deposited data

How the results depend on the processing

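Counts of transporter genes called moved most with library weights, which raised the counts over all genes too. They gave 9 in nic10 liver (2804 of all 10892 genes), 7 in nic50 liver (3373), 8 between the liver doses (4797), 8 in nic10 gut (1838 of 12617), 7 between the gut doses (1092) and 12 and 2 for the difference between tissues at nic10 and nic50 (2719 and 546 of 13475). With alike livers averaged 1 nic50 sample was left, so the counts at nic50 in that fit cannot decide on the transporter genes. The single call between the liver doses became 0 with no filter, only the groups compared, a pseudocount of 0.1, quantile normalization, the replicate block or trimmed means, and 3 with the term for the set. The difference between tissues at nic10 gave 1 call with no filter and 1 with the term for the set, and quantile normalization gave 10 genes higher in liver than in gut. Without 1 library at a time counts ran from 0 to 6 in nic10 liver, 0 to 4 in nic50 liver, 0 to 2 between the liver doses, 0 to 1 in nic10 gut, 0 to 0 in nic50 gut, 0 to 1 between the gut doses, 0 to 2 and 0 to 1 for the differences between tissues, and 5 to 7 higher and 14 to 15 lower in liver than in gut. The causes were not tested. Over single genes and settings 576 values kept direction and side, 39 lost the call, 25 gained it and 5 reversed, none of them called: with the term for the set SLC1A5 at nic50 (0.66), SLC43A2 at nic10 (0.056) and SLC6A6 at nic10 (0.33) in liver, SLC1A5 in nic50 liver without control 3 (0.0075, from -0.77 to 0.0075 without 1 library at a time) and SLC6A20 in nic50 gut without nic50 library 1 (-0.053, from -0.053 to 0.76). In liver the term for the set leaves control 1 alone to give the control level, so the liver reversals with that term rest on that library. Equal replicate numbers were not used as pairs in the main fit. Within a tissue 7 of 18 pairs of equal number deviated together above a correlation of 0.1 (-0.287 to 0.245). Liver and gut libraries of the same group and number ranged from -0.217 to 0.257. These values cannot decide if the libraries are paired. With the replicate block 3 genes were called in nic50 liver, SLC15A4, SLC38A4 and SLC43A3. Depth is unknown, and genes near 1 FPKM carry the least certain values.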

Other observations

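Of the peptidases that work beside these carriers some were low in nic10 guts as SLC15A1 was, and others were not. ACE, a peptidase of the brush border, was at 352, 102 and 590 FPKM in controls, 3.63, 22.4 and 18.2 in nic10 and 136, 211 and 50.6 in nic50 guts (-4.44 at nic10, SE 0.81, limma adjusted p = 0.121). Each nic10 gut thus lay below every other gut in ACE, as for SLC15A1. MEP1A, a meprin subunit that cuts peptides, was at 411, 288 and 386 FPKM in controls and 3.10, 190 and 55.4 in nic10 guts (-3.34, SE 1.11, adjusted p = 0.251). XPNPEP2 stood at 193, 179 and 175 FPKM in controls and 27.2, 130 and 77.7 in nic10 guts, below every control. CNDP2 stood at 85.7, 88.4 and 77.3 against 16.8, 95.9 and 37.1. DPP4, a dipeptidyl peptidase, stood at 38.3, 52.7 and 49.4 FPKM in controls and 39.7, 84.1 and 70.3 in nic10 guts, and the dipeptidase DPEP1 at 34.8, 30.6 and 66.3 against 74.8, 62.9 and 243. The meprin subunit MEP1B was at 125, 95.2 and 117 FPKM in controls and at 24.3, 206 and 145 in nic10 guts, GGT1 at 2.69, 5.75 and 7.85 against 4.69, 10.7 and 10, and LAP3 at 10.4, 12.7 and 16.1 against 10, 14.2 and 9.58. Of 15 listed peptidases and partners tested in gut 0 were called by limma at either dose, against 0.174% and 0.0238% of all genes. At an unadjusted p below 0.05 there were 5 at nic10 and 0 at nic50, against 14.9% and 6.5% of all genes, with medians of -0.75 at nic10 and -0.22 at nic50, against 0.11 and -0.02 over all genes.

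In nic50 liver single genes of other amino acid pathways passed the test, where 4.71% of all genes did. Of 14 tested genes of the amino acid response that ATF4 drives, MTHFD2, an enzyme of mitochondrial folate metabolism, rose from 1.04, 1.87 and 1.41 FPKM to 3.26, 2.99 and 4.01 (0.86, SE 0.20, limma adjusted p = 0.0353), and the list median was 0.01. ASNS, which makes asparagine, differed by -0.03 (adjusted p = 0.964). Of 8 tested other amino acid carriers SLC25A29, a mitochondrial carrier of basic amino acids, rose from 11.7, 15.2 and 14.8 FPKM to 33.9, 27.5 and 29.6 (1.08, adjusted p = 0.024). Of 21 tested genes of amino acid sensing at the mTORC1 kinase DEPDC5, a subunit of a complex that restrains it, rose from 3.99, 3.26 and 3.57 FPKM to 6.64, 6.99 and 6.86 (0.77, adjusted p = 0.028). Of 6 tested peptidases and partners LAP3 rose (0.63, adjusted p = 0.0489) and XPNPEP2 fell (-0.72, adjusted p = 0.0462). In nic10 liver 0 genes of these 4 lists were called by limma, against 1.07% of all genes. At an unadjusted p below 0.05 were 2 of 6 peptidases, 5 of 14 genes of the ATF4 response, 3 of 21 of mTORC1 sensing and 2 of 8 other carriers, against 13.5% of all genes.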
